A study of Mus musculus with 18 samples.

Results

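Sbp, Spink1, Msmb, Tgm4, 9530053A07Rik, Pbsn and Azgp1 are 7 genes of the mouse prostate's secretory epithelium. They were chosen by name, as rows of the normalized count tables whose gene ID carries one of these symbols, and all 7 were found among 55469 gene IDs. The choice used earlier results of the same data: the genes were known to differ from library to library within a group. Their levels and their spread are therefore given as a description, with no test.

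The mice were 18 males, 3 for each line and age, and each library held total RNA of their ventral and lateral prostate. Every mouse was TRAMP+/- on a background labelled C56NL/6N, so the controls carry the transgene too. In TRAMP, a probasin (Pb) promoter drives the SV40 T antigens in prostatic epithelium, and tumours form. WT-TRAMP mice had intact Elac2, whose product trims the 3′ ends of precursor tRNAs. KO-TRAMP mice lacked exon 8 of both Elac2 copies in the prostate, where Pb-Cre is active. A537T-TRAMP mice carried the Ala537Thr change on both copies in the whole body. Each line was sampled at 10 and at 30 weeks. The table columns carry library numbers and no mouse numbers, so the columns present in both tables of an age were taken as WT-TRAMP. At 10 weeks, WT-TRAMP holds libraries 1 to 3, A537T-TRAMP holds 4 to 6, and 7 to 9 belong to KO-TRAMP. At 30 weeks, WT-TRAMP holds 10 to 12, A537T-TRAMP holds 13 to 15, and 16 to 18 belong to KO-TRAMP.

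The rodent prostate is built of paired lobes whose luminal cells secrete different proteins into the seminal fluid, most of them under hormonal control. Sbp, the spermine binding protein, and Spink1, a Kazal-type inhibitor of trypsin-like proteases, are products of the ventral lobe. Msmb, beta-microseminoprotein, is best known from the lateral and dorsal lobes, and Tgm4, the transglutaminase that cross-links semen into the copulatory plug, from the dorsal and anterior lobes. Pbsn, probasin, is the lipocalin whose promoter was used to build TRAMP and Pb-Cre. Azgp1 encodes zinc-alpha-2-glycoprotein, a secreted protein related to class I MHC molecules. RefSeq lists FCGBP, an IgG Fc binding protein, as a synonym of 9530053A07Rik, and the gene lies beside Fcgbp on chromosome 7.

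Promoters are shown for genes whose levels followed different orders of libraries, as described later: Sbp on one side, and Tgm4, 9530053A07Rik and Pbsn on the other. Each is the 250 bases before the RefSeq transcription start on GRCm38.p6, written along the gene. Capitals mark the letters AGAACA or their reverse complement TGTTCT, a half-site that steroid hormone receptors are known to bind.
Sbp, chr17:23941428-23941677, plus strand: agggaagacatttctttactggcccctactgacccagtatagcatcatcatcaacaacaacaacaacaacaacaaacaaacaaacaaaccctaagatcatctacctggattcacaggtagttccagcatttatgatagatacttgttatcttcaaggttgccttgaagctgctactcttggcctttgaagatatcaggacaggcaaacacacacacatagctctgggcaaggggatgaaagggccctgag
Tgm4, chr9:123034491-123034740, plus strand: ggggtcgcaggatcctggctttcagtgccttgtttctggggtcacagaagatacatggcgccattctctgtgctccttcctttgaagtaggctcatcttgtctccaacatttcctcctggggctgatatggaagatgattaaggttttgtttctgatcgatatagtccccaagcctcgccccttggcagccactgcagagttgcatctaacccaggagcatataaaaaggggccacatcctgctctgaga
9530053A07Rik, chr7:28129216-28129465, plus strand: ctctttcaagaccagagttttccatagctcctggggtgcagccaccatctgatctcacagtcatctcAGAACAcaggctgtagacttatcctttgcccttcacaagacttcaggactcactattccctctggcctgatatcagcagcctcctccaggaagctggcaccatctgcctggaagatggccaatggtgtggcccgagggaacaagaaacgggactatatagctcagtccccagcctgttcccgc
Pbsn, chrX:77853501-77853750, minus strand: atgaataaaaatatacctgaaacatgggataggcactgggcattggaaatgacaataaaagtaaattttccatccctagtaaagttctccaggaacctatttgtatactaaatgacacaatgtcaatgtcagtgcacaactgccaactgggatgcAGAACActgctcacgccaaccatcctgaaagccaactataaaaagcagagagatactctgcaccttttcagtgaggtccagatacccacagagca
The half-site was found once in the window of Pbsn, starting 95 bases before the start, and once in that of 9530053A07Rik, starting 183 bases before it. It was found on neither strand of the Sbp, Tgm4 and Azgp1 windows. Among all 32851 RefSeq windows of this length, 16.1% held it at least once. The letters TATAAA on the gene's own strand were present in the windows of Tgm4, 30 bases before the start, and of Pbsn, 59 bases before it, against 7.59% of all windows. The Pbsn gene of the GENCODE annotation begins at 77853623, inside the window shown, while RefSeq starts it at 77853500. A match is a description of the letters and was not tested as a binding site.

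On GRCm38, Sbp (ENSMUSG00000024128.13) spans 23941672 to 23945607 on chromosome 17 and Spink1 (ENSMUSG00000024503.3) 43728082 to 43737557 on chromosome 18. Msmb (ENSMUSG00000021907.13) spans 32142023 to 32158370 on chromosome 14 and Azgp1 (ENSMUSG00000037053.6) 137981520 to 137990233 on chromosome 5. Tgm4 (ENSMUSG00000025787.6) spans 123034726 to 123067561 on chromosome 9, 9530053A07Rik (ENSMUSG00000078776.9) 28129466 to 28164811 on chromosome 7, and Pbsn (ENSMUSG00000000003.15) 77837901 to 77853623 on chromosome X. All 7 are annotated as protein coding. Of the 31-base stretches in the Sbp transcripts, 26.6% also occur in Sbpl, which was measured at 0.104 to 8.68 RPM (a gene's recovered reads, scaled to the total of its library). For 9530053A07Rik 10.7% occur in Fcgbp, at 1.01 to 19 RPM, so values of 9530053A07Rik near that level are uncertain. Tgm4 shares 5.96% with Gm49323, whose highest level was 0.181 RPM, and no stretch of Spink1 or Pbsn occurs elsewhere.

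Depth was 9380174 to 14830104 recovered reads per library. Luminal markers were present in every library: the 10 genes of the luminal identity list, among them Krt8 and Epcam, made up 0.191% to 0.381% of reads. Elac2 itself had 23.0 to 27.3 RPM in KO-TRAMP and 24.6 to 31.4 in WT-TRAMP at 10 weeks, and 21.5 to 24.7 against 22.0 to 27.2 at 30 weeks. Those ranges overlapped, and gene totals do not show exon 8. Genes of the seminal vesicle, an organ that the protocol removed, summed to between 0.000106% and 9.05% of reads. They were highest in library 5, followed by library 13 at 5.45% and library 10 at 4.35%, and lay under 0.001% in the 3 WT-TRAMP libraries of 10 weeks. Libraries 12 and 18 stood apart in another way. Library 12 was matched by 45% of library 10 plus 55% of library 11 with a root mean square (RMS) difference of 0.154 on the log2 scale over 7556 genes, and library 18 by 40% of library 16 plus 60% of library 17 with 0.205. For the other 16 libraries the best weighted sum of any 2 libraries left between 0.237 and 0.597. The comparisons that use 30-week libraries are therefore also given without libraries 12 and 18.

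**Figure D1:**
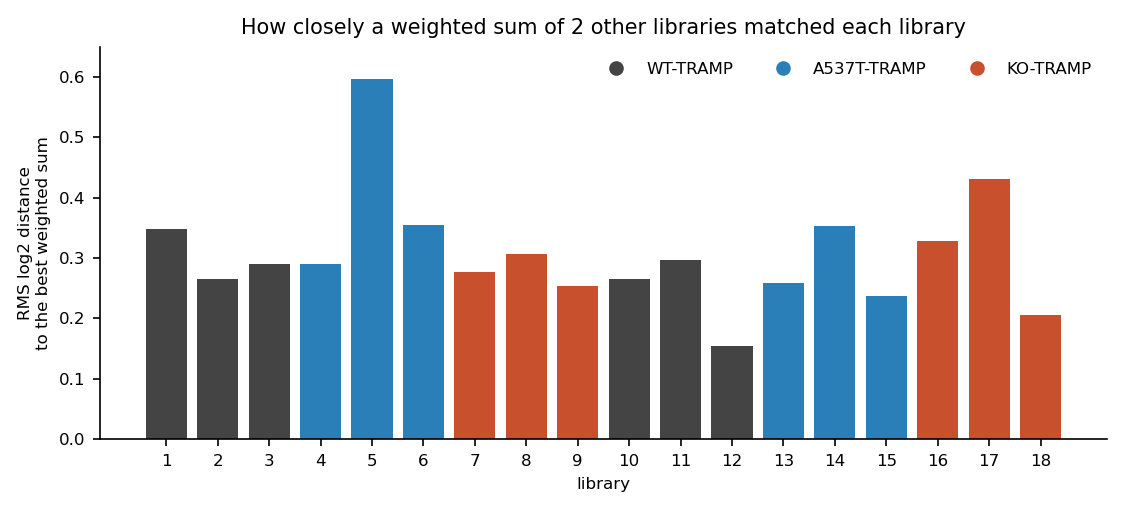
RMS log2 distance (vertical axis) between each of the 18 libraries and the best weighted sum of any 2 others, coloured by line. Libraries 12 and 18 have the lowest bars, at 0.154 and 0.205, and library 5 the highest, at 0.597.

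Sbp was the most abundant of the 7 genes and the one with the clearest step between ages. In RPM, Sbp was 22547, 25833 and 19126 in WT-TRAMP libraries 1 to 3, 28895, 424 and 13284 in A537T-TRAMP, numbered 4 to 6, and 11217, 9835 and 10662 in KO-TRAMP, numbered 7 to 9. At 30 weeks it was 1395, 1399 and 1435 in WT-TRAMP, 1528, 759 and 1530 in A537T-TRAMP, and 1151, 520 and 770 in KO-TRAMP. Every 10-week library except library 5 exceeded every 30-week library. Levels at 10 and 30 weeks come from separate tables and were not tested against each other, so this step in RPM is a description. In bulk tissue, fewer cells of a type and less RNA per cell cannot be told apart, and how much of each lobe a library held is not given in the sources used here.

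Spink1 followed Sbp closely. Its levels in RPM were 2528, 2592 and 1425 in WT-TRAMP, 2819, 49.2 and 1371 in A537T-TRAMP and 890, 1022 and 727 in KO-TRAMP at 10 weeks. At 30 weeks they were 134, 222 and 185 in WT-TRAMP, 288, 73.2 and 273 in A537T-TRAMP and 139, 72.4 and 102 in KO-TRAMP. The same library, number 5, was lowest for both genes, and library 4 was highest for both. Over the 18 libraries Sbp ranged 68.1-fold and Spink1 57.3-fold, while the ratio of Sbp reads to Spink1 reads stayed between 5.30 and 14.7.

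Tgm4 and 9530053A07Rik formed another pair, with a different order of libraries. Tgm4 had 27.1, 5.86 and 53.1 RPM in WT-TRAMP, 3.79, 207 and 235 in A537T-TRAMP and 2.61, 405 and 40.8 in KO-TRAMP at 10 weeks. At 30 weeks it had 132, 53.9 and 95.1 in WT-TRAMP, 6.13, 515 and 19.5 in A537T-TRAMP and 8.27, 2.43 and 3.84 in KO-TRAMP. Within the same group, library 8 was thus 155-fold above library 7, and the 3 KO-TRAMP libraries of 30 weeks were all low.

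9530053A07Rik had 471, 66.3 and 468 RPM in WT-TRAMP, 20.4, 1724 and 1816 in A537T-TRAMP and 6.53, 2475 and 236 in KO-TRAMP at 10 weeks. At 30 weeks it had 1317, 40.4 and 612 in WT-TRAMP, 13.2, 4141 and 62.3 in A537T-TRAMP and 4.09, 4.11 and 3.65 in KO-TRAMP. Its range over all libraries was 1136-fold, the widest of the 7, and library 14 held the highest value for both genes of the pair. The KO-TRAMP values at 30 weeks rest on 38 to 61 reads and lie within the range of Fcgbp.

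Pbsn tracked this second pair in part. Its levels were 28, 35.6 and 49.6 RPM in WT-TRAMP, 111, 122 and 122 in A537T-TRAMP and 39.1, 180 and 71.4 in KO-TRAMP at 10 weeks. At 30 weeks they were 48.1, 11 and 30.6 in WT-TRAMP, 22.1, 116 and 40.9 in A537T-TRAMP and 14.7, 3.91 and 7.97 in KO-TRAMP. Libraries 8 and 14, which led for Tgm4 and 9530053A07Rik, also had the highest Pbsn of their groups.

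Msmb behaved differently from both pairs. It had 12.6, 221 and 600 RPM in WT-TRAMP, 457, 379 and 363 in A537T-TRAMP and 673, 513 and 456 in KO-TRAMP at 10 weeks. At 30 weeks the values were 315, 458 and 377 in WT-TRAMP, 456, 476 and 523 in A537T-TRAMP and 265, 149 and 209 in KO-TRAMP. Library 1, with 165 Msmb reads, lay far below the rest, the next lowest being library 17 at 149 RPM.

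Azgp1 was the steadiest member. Its 18 values had a median of 200 RPM, with a lowest of 72.4 in library 5 and a highest of 256 in library 3, a 3.53-fold range. Library 17, at 81.1, was the lowest of the 30-week libraries.

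**Figure D2:**
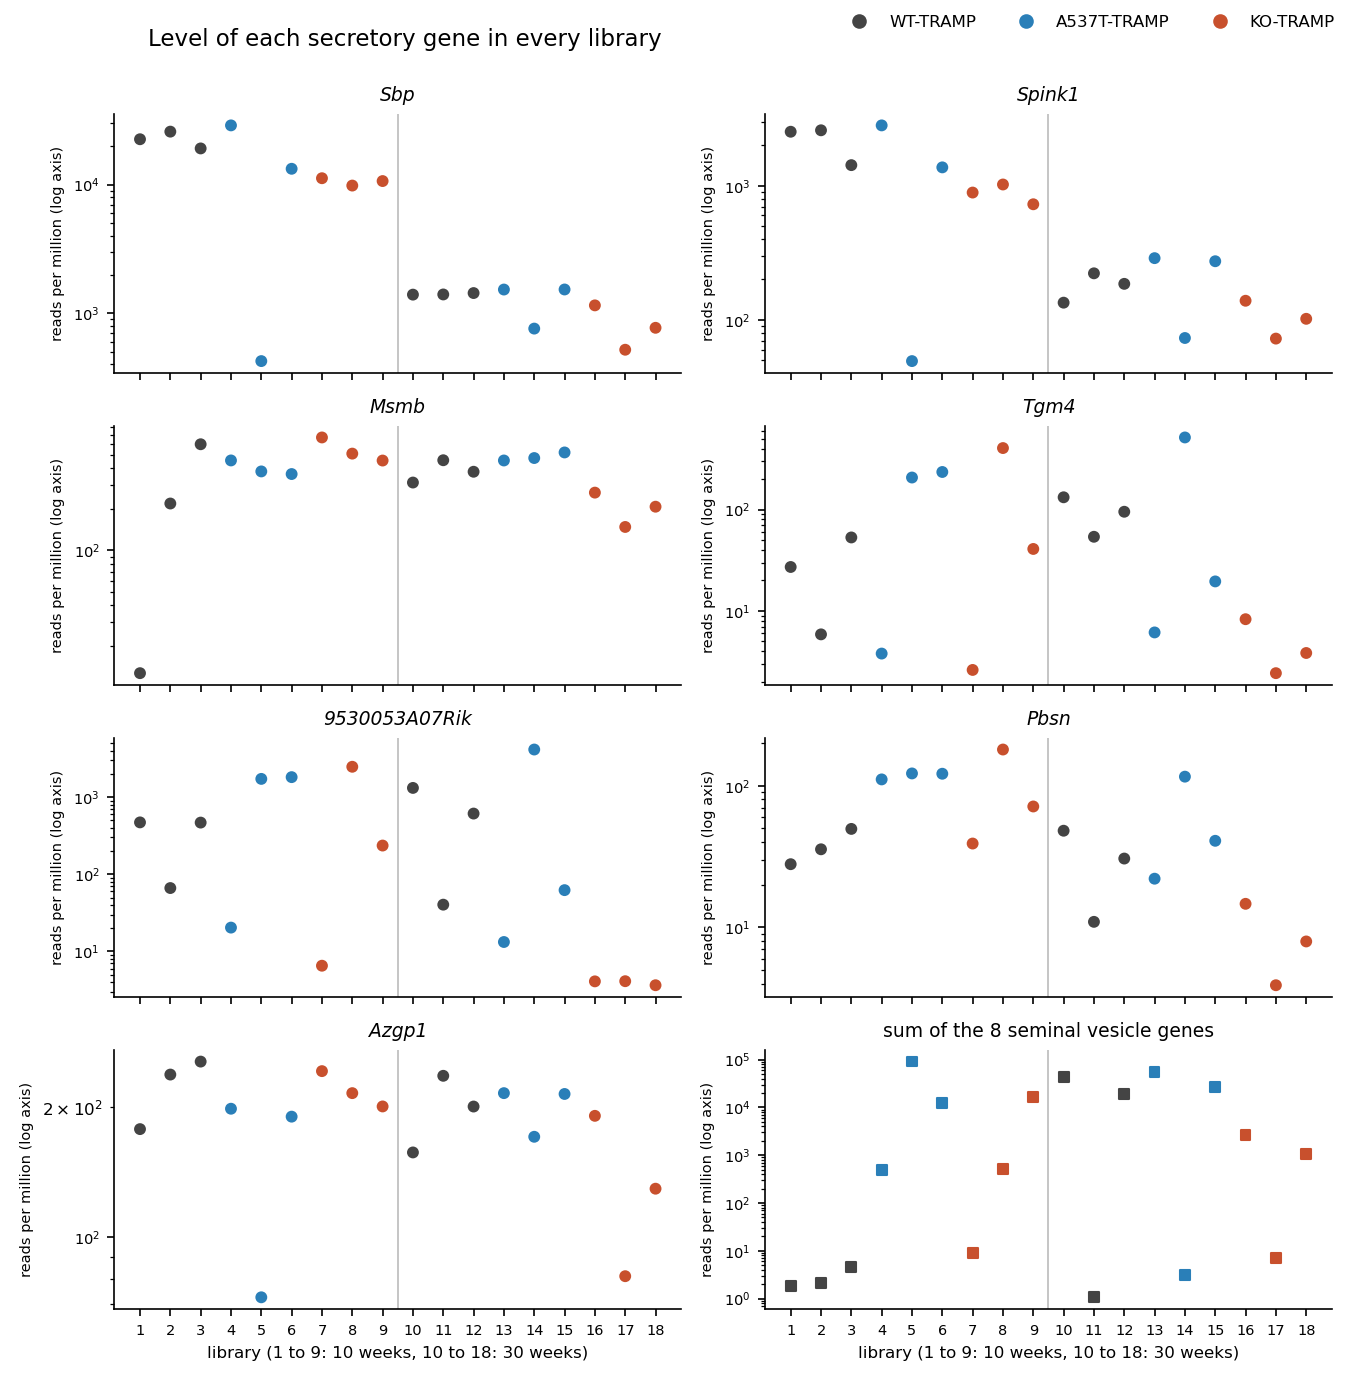
RPM (log axis) of each of the 7 genes, and of the summed seminal vesicle genes, in libraries 1 to 18, coloured by line, with a vertical line between the ages. Sbp and Spink1 drop between the ages, Tgm4 and 9530053A07Rik vary from library to library within groups, and Azgp1 spans a 3.53-fold range.

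Per length, the order of the genes can be compared. At their medians over 18 libraries Sbp had 1039 RPM per kb of exon, Msmb 709, Spink1 385 and Azgp1 124. Pbsn had 44.3, 9530053A07Rik 12.8 and Tgm4 7.46 on the same scale. The ranges of Sbp, Msmb and Spink1 overlapped, as did those of Pbsn, 9530053A07Rik and Tgm4. All genes were measured in the same 18 libraries, so overlap of these ranges does not compare the genes within a library, and the order was not tested. Together the 7 genes took 0.298% to 3.25% of reads at 10 weeks and 0.0832% to 0.625% at 30 weeks, and Sbp's share of that sum ranged from 12.1% in library 14 to 89.1% in library 2.

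The spread within groups was wide for 6 of the 7 genes. The pooled within-group SD of log2(RPM + 1) was 3.13 for 9530053A07Rik, 2.43 for Tgm4, 1.38 for Spink1, 1.37 for Sbp, 1.2 for Msmb, 0.87 for Pbsn and 0.46 for Azgp1. The median over all genes at a mean of at least 1 RPM was 0.29. Between 94.1% (Pbsn) and 99.9% (9530053A07Rik) of those genes had a smaller SD than these 6, and 78.2% had a smaller one than Azgp1. These are the values by which the genes were known when chosen.

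Likeness across libraries was measured as Pearson's r of log2 levels. The 18 points share 6 groups and separate depths, so r is also given with group means removed. Sbp and Spink1 had an r of 0.99 over 18 libraries and 0.97 with group means removed, and Tgm4 and 9530053A07Rik 0.93 and 0.96. Pbsn with 9530053A07Rik gave 0.74 and 0.77. With group means removed, Sbp against Tgm4 gave −0.42 and Spink1 against 9530053A07Rik −0.49. On that scale Sbp against Azgp1 gave 0.82, Spink1 against Azgp1 0.80 and Pbsn against Tgm4 0.73. All other pairs lay between −0.48, for Tgm4 against Spink1, and 0.37, for Msmb against Azgp1. Among 3694 other genes at a mean of at least 50 RPM, the 3 most like Sbp were Mat2a at 0.93, Col6a3 at 0.91 and Hid1 at 0.90, and Mat2a and Col6a3 also led for Spink1. Tcaf3 was most like Tgm4, at 0.94, and most like 9530053A07Rik, at 0.88. Msmb was most like Defb50, a beta-defensin, at 0.95, then Muc19 and Abca5. Timp4, Pgrmc2 and Map1lc3b led for Azgp1, at 0.95, 0.94 and 0.94, and Prrc1, Spen and Trabd for Pbsn, at 0.85, 0.85 and 0.82. With group means removed, r was 0.27 for Trabd and 0.66 for Spen with Pbsn, and 0.72 for Hid1 with Sbp. Mat2a had 0.90 with Sbp on that scale, Tcaf3 0.96 with Tgm4, Defb50 0.95 with Msmb and Timp4 0.95 with Azgp1. Leaving out libraries 12 and 18 gave 0.98 for Sbp with Spink1 and 0.93 for Tgm4 with 9530053A07Rik.

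**Figure D3:**
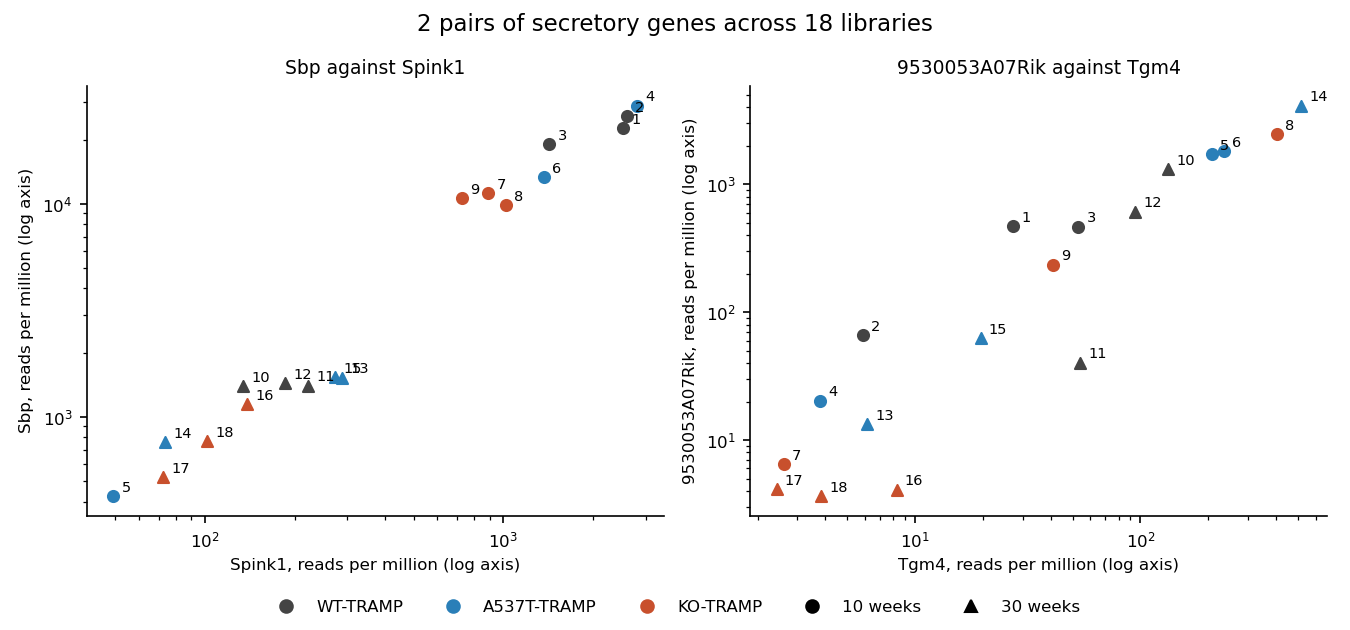
RPM of Sbp against Spink1 (left) and of 9530053A07Rik against Tgm4 (right), both axes on a log scale, for 18 numbered libraries coloured by line, with circles for 10 weeks and triangles for 30 weeks. Library 5 sits at the low end on the left and near the high end on the right.

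Each line was set against age-matched WT-TRAMP to ask how loss or change of ELAC2 altered these transcripts. Values in the comparisons are normalized counts with SD and n = 3 libraries per group. Log2 fold changes (log2FC) were taken after adding 1 to each normalized count and carry their SE, and limma gave the p-values, adjusted over all genes tested. Each log2FC is a difference between means of log2 values, so its direction can differ from that of the ratio of mean counts. In KO-TRAMP at 10 weeks, the ventral lobe proteins Sbp and Spink1 were lower than in WT-TRAMP with no overlap between the groups. Sbp had 117814 ± 5821 in KO-TRAMP against 261890 ± 39221, or 0.45 of the WT-TRAMP mean. Spink1 had 9824 ± 1789 against 25353 ± 7499, or 0.39. Genes that were lower without overlap made up 6.26% of the 15451 genes tested. The log2FC of Sbp was −1.14 (SE 0.17, adjusted p = 0.276) and that of Spink1 −1.33 (SE 0.24, adjusted p = 0.574). None of the 7 genes passed the threshold of 0.05, where 0.0129% of all genes did. The other 5 genes overlapped between the groups, with log2FC of 2.12 (SE 1.20) for Msmb, 1.05 (SE 0.50) for Pbsn, 0.73 (SE 1.63) for Tgm4, −0.70 (SE 1.89) for 9530053A07Rik and −0.08 (SE 0.15) for Azgp1. Although its log2FC was negative, the KO-TRAMP mean of 9530053A07Rik was 2.65 times that of WT-TRAMP.

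DESeq2 on the recovered reads called Sbp and Spink1 at 10 weeks in KO-TRAMP, with adjusted p-values of 1.03e-14 and 2.22e-06, where it called 0.526% of all genes. Without library 3, the WT-TRAMP library lowest in both genes, limma called Spink1 as well, with log2FC −1.61 and adjusted p = 0.0369, where 0.0583% of all genes passed. With edgeR on the recovered reads, 0 genes of the whole table were called. Over all alternatives of this comparison, 3 of 91 values of the 7 genes newly passed the threshold. Marker lists moved with this comparison. Seminal vesicle genes made up 0.000906%, 0.0522% and 1.63% of reads in KO-TRAMP libraries 7 to 9 and at most 0.000459% in WT-TRAMP. Smooth muscle genes made up 0.0625% to 0.10% against 0.0331% to 0.0565%, and proximal luminal genes 0.0249% to 0.0301% against 0.0117% to 0.0216%. Their part in the result was not tested.

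In A537T-TRAMP at 10 weeks, Pbsn was higher without overlap, at 1143, 1561 and 1317 normalized counts against 288, 375 and 520 in WT-TRAMP. The mean was 3.4 times that of WT-TRAMP, with log2FC 1.79 (SE 0.23, adjusted p = 0.458). Genes higher without overlap made up 6.92% of the 15438 tested. DESeq2 on the recovered reads gave Pbsn an adjusted p of 4.00e-08, where it called 0.964% of all genes. Pbsn is the one member that separated the groups here, and no member passed in limma, where 0.00648% of all genes did. With edgeR on the recovered reads, 0 genes of the whole table were called.

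Single libraries moved the rest of this comparison. Sbp had 297885, 5421 and 144014 normalized counts in A537T-TRAMP against 231389, 271823 and 200545 in WT-TRAMP, so library 4 lay above the WT-TRAMP range and libraries 5 and 6 below it. The log2FC of Sbp was −1.92 (SE 1.34, adjusted p = 0.638) and ranged from −3.06 without library 4 to −0.17 without library 5. That of Spink1 was −1.76 (SE 1.29) and ranged from −2.84 to −0.08 with the same libraries left out. On recovered reads the log2FC of Sbp was −0.64 with edgeR and −0.65 with DESeq2, and that of Spink1 −0.60 and −0.61. The log2FC of 9530053A07Rik, 0.83 (SE 1.78), became −0.31 without library 5 and 3.04 without library 4. Library 5 held 9.05% seminal vesicle reads, library 6 held 1.25% and library 4 held 0.0487%, and smooth muscle genes made up 0.0849% to 0.198% of reads in this group against 0.0331% to 0.0565% in WT-TRAMP. Their part in these values was not tested. Msmb, at 1.86 (SE 1.25), Tgm4, at 1.56 (SE 1.64), and Azgp1, at −0.56 (SE 0.33), also overlapped.

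In KO-TRAMP at 30 weeks all 7 genes had negative log2FC, against 50.9% of all genes with positive ones. Tgm4 was 96, 26 and 42 in KO-TRAMP and 1508, 632 and 1105 in WT-TRAMP, 0.0504 of the WT-TRAMP mean, with log2FC −4.40 (SE 0.53, adjusted p = 0.0547). 9530053A07Rik was 47, 44 and 40 in KO-TRAMP against 15024, 474 and 7109, with log2FC −6.37 (SE 1.22, adjusted p = 0.173). The WT-TRAMP libraries themselves ranged widely, and each KO-TRAMP library still lay below the lowest of them for both genes. Sbp, at 9103 ± 3894 against 16333 ± 378, and Msmb, at 2317 ± 732 against 4451 ± 898, did not overlap either, with log2FC −0.93 (SE 0.30, adjusted p = 0.338) and −0.97 (SE 0.27, adjusted p = 0.325). Genes lower without overlap made up 9.48% of the 16900 tested. Spink1, Azgp1 and Pbsn overlapped, with log2FC −0.88 (SE 0.31), −0.70 (SE 0.35) and −1.77 (SE 0.69).

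No member passed the threshold in limma at 30 weeks in KO-TRAMP, where 0.213% of all genes passed. At an unadjusted p under 0.05 stood 6 of the 7, against 13.5% of all genes. With no filter on low values Tgm4 passed in limma, at adjusted p = 0.0441, where 0.154% of all genes passed. Array weights in limma called all 7, where they called 63.6% of all genes, and edgeR called none of the 7 and 0.0888% of all genes. DESeq2 on the recovered reads called Tgm4, 9530053A07Rik and Msmb, where it called 4.77% of all genes. Without library 16, limma called 5 members: Sbp (log2FC −1.25), Tgm4 (−4.90), Msmb (−1.20), 9530053A07Rik (−6.43) and Spink1 (−1.14), while its count over all genes went from 36 to 3064, or 18.1%. Without library 11 it called 9530053A07Rik, at −7.85 and adjusted p = 0.0452, where 0.0118% of all genes passed. Both of these fits kept libraries 12 and 18, each close to a weighted sum of the other libraries of its group.

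Leaving out libraries cannot make separated groups overlap, so the 4 genes had to stay without overlap when libraries 12 and 18 were dropped. Of all genes, 13.9% were then lower without overlap. No gene passed in limma without libraries 12 and 18, with 343 genes at an unadjusted p under 0.05. The log2FC then were −4.25 for Tgm4, −5.83 for 9530053A07Rik, −0.90 for Sbp, −0.98 for Msmb, −0.83 for Spink1, −0.68 for Azgp1 and −1.64 for Pbsn, each with adjusted p = 0.986.

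Other markers moved with the same comparison. Epcam, an epithelial adhesion protein, was 7342 ± 726 against 5811 ± 849 (log2FC 0.34, SE 0.15, adjusted p = 0.374 in limma). Of the 10 luminal identity genes, Epcam among them, 4 had a positive log2FC, and the median was −0.44. The 6 fibroblast genes made up 0.155% to 0.194% of reads against 0.0364% to 0.0419%, and 3 of the 6 rose past the threshold, led by the collagen Col3a1 (log2FC 2.71, SE 0.25, adjusted p = 0.0401). All 6 macrophage genes had a positive log2FC, and 1 passed the threshold in limma, the complement component C1qb (log2FC 1.09, adjusted p = 0.0415). Of the 5 skeletal muscle genes 4 had a positive log2FC, and 1 passed the threshold in limma, the myosin Myh4 (log2FC 6.03, adjusted p = 0.0450). Neuroendocrine genes reached 0.164% of reads in library 17 and 0.102% in library 18 and were at 4.45e-05% in library 16, where 6 of the 10 had no read. Their part in the lower secretory levels was not tested.

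In A537T-TRAMP at 30 weeks, Msmb was higher without overlap, at 5250, 5442 and 5763 normalized counts against 3319, 4937 and 4022 in WT-TRAMP. The log2FC was 0.44 (SE 0.15, adjusted p = 0.666), and genes higher without overlap made up 7.36% of the 16261 tested. Leaving out library 12 could not make these groups overlap, and 9.95% of all genes were then higher without overlap. Without library 12 the log2FC was 0.44 for Msmb, −0.13 for Sbp, 0.12 for Spink1, 0.13 for Azgp1, 1.11 for Pbsn, −1.03 for Tgm4 and −0.58 for 9530053A07Rik. Fibroblast genes made up 0.0584% to 0.0966% of reads against 0.0364% to 0.0419% in WT-TRAMP, and adipose genes 0.000219% to 0.000926% against 0.00309% to 0.00905%. Their part in the Msmb values was not tested. No gene of the whole table passed the threshold in limma, with 1173, or 7.21%, at an unadjusted p under 0.05. Of the 7 genes, 1 was among these. There edgeR also called 0, DESeq2 called 165, or 1.02%, with no member among them, and array weights called 1 member, where they called 20.8% of all genes.

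Library 14 stood out among the A537T-TRAMP libraries of 30 weeks. Its Tgm4 value was 5891, where libraries 13 and 15 had 70 and 215 and WT-TRAMP had 1427, 594 and 1038, and 9530053A07Rik was 152, 47379 and 687 against 14416, 451 and 6772. In both genes library 14 lay above the WT-TRAMP range and library 13 below it. The log2FC were −1.09 (SE 1.46) and −1.05 (SE 2.17), and −2.95 and −3.44 without library 14. With all libraries, the A537T-TRAMP means were 2.02 and 2.23 times those of WT-TRAMP. Sbp (−0.14, SE 0.26), Spink1 (0.09, SE 0.51), Azgp1 (0.11, SE 0.17) and Pbsn (0.98, SE 0.70) overlapped with WT-TRAMP. Seminal vesicle genes made up 5.45%, 0.000313% and 2.65% of reads in libraries 13, 14 and 15, and 4.35%, 0.000106% and 1.90% in WT-TRAMP libraries 10, 11 and 12. Tgm4 was highest in library 14 among the former and lowest in library 11 among the latter. Their part was not tested.

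**Figure D4:**
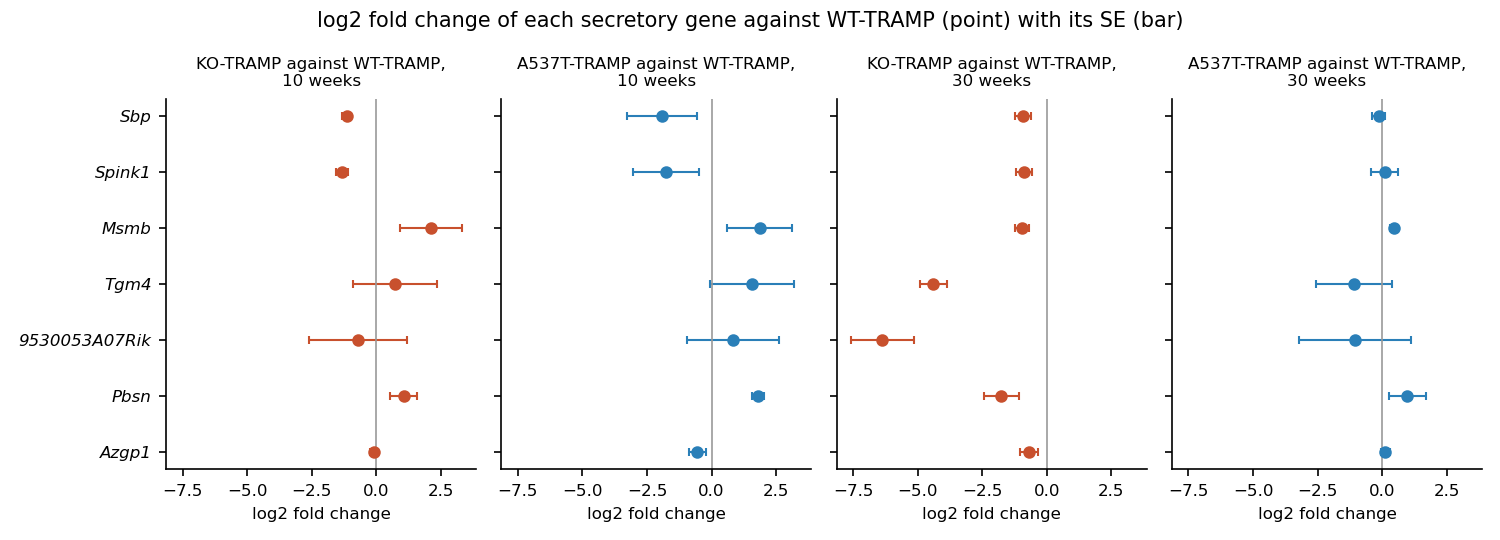
Log2 fold change against WT-TRAMP (points) with its SE (bars) for the 7 genes in the 4 comparisons, after adding 1 to each normalized count. The 7 points of KO-TRAMP at 30 weeks lie below 0, from −6.37 for 9530053A07Rik to −0.70 for Azgp1.

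The change of each effect from 10 to 30 weeks was tested over the 12 libraries of a line and its controls. In KO-TRAMP the effect on Pbsn moved by −2.82 (SE 0.94, adjusted p = 0.299), that on Tgm4 by −5.13 (SE 2.04, adjusted p = 0.343) and that on Msmb by −3.09 (SE 1.46, adjusted p = 0.392). For 9530053A07Rik it was −5.67 (SE 2.61), for Azgp1 −0.62 (SE 0.41), for Sbp 0.21 (SE 0.36) and for Spink1 0.46 (SE 0.43). In A537T-TRAMP the differences ranged from −2.66 (SE 2.48) for Tgm4 to 1.85 (SE 1.56) for Spink1. No gene passed in either line, where the background was likewise 0% of all genes in limma. An unadjusted p under 0.05 was reached by 2146 genes in KO-TRAMP, or 13.1%, Pbsn and Tgm4 among them, and by 1014 in A537T-TRAMP, and edgeR called 0 in both. Without library 16, Pbsn passed in KO-TRAMP, with −3.31 and adjusted p = 0.0427 in limma, where 11.8% of all genes passed, and without libraries 12 and 18 its value was −2.69 with adjusted p = 0.794. Without these libraries the KO-TRAMP values were −4.98 for Tgm4, −3.11 for Msmb, −5.13 for 9530053A07Rik, −0.61 for Azgp1, 0.24 for Sbp and 0.50 for Spink1, and no gene passed. Without library 12, those of A537T-TRAMP ran from −2.60 for Tgm4 to 1.88 for Spink1, and no gene passed in limma, the counts at an unadjusted p under 0.05 being 961 and 612.

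Relatives of the members were measured alongside them. Of the 12 other Kazal inhibitors, 3 to 5 passed the filter in each comparison and none passed the threshold. Spink5, the most abundant, had a log2FC of −0.44 (SE 0.36) and −0.60 (SE 0.23) in KO-TRAMP at 10 and 30 weeks. Of 6 other transglutaminase family genes, 4 passed the filter and none the threshold. Tgm2, the tissue transglutaminase, was 699 ± 130 against 483 ± 35.6 in KO-TRAMP at 10 weeks (log2FC 0.52, SE 0.15, adjusted p = 0.716) and 841 ± 33.4 against 608 ± 7.79 at 30 weeks (log2FC 0.47, SE 0.09, adjusted p = 0.193), so its log2FC and that of Tgm4 had opposite signs at 30 weeks. Among 13 other genes of the secretory epithelium none passed in any comparison. Pigr, the receptor that carries IgA into secretions, was the most abundant of them, with log2FC −0.76 (SE 0.23) in KO-TRAMP and −2.00 (SE 0.83) in A537T-TRAMP at 10 weeks, and −0.17 (SE 0.59) and −0.15 (SE 0.21) at 30 weeks. In A537T-TRAMP at 30 weeks Tgm2 was higher without overlap, at 852 ± 24.5 against 550 ± 7.16 (log2FC 0.63, SE 0.08, adjusted p = 0.179 in limma). Genes higher without overlap made up 7.36% of all genes tested there.

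The remaining marker lists had no gene past the threshold in any of the 4 comparisons. In KO-TRAMP at 30 weeks their median log2FC were 0.32 for the proximal luminal genes, 0.69 for the basal genes, 0.65 for the proliferation genes, −1.08 for the B and T cell genes and −3.34 for the adipose genes, against 0.01 for all genes tested. The adipose genes made up 0.00309% to 0.00905% of reads in WT-TRAMP at 30 weeks and 0.000418% to 0.00446% in KO-TRAMP. The luminal identity genes, with a median of −0.44, took 0.303% to 0.348% of reads in those KO-TRAMP libraries and 0.270% to 0.357% in WT-TRAMP, ranges that overlapped.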

How the data were processed

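RNA was measured in 18 libraries, 3 per line and age. Per the labels and the study's methods, the authors trimmed reads with Trim Galore 0.4.1 and cutadapt 1.18, aligned them with STAR 2.7.3a to a GRCm38 in which nuclear mitochondrial sequences were masked, counted with strand by Salmon on GENCODE, and scaled with DESeq2 1.26. The authors deposited 4 tables of normalized counts, a signal equal to the estimated reads over 1 size factor per library, set within a table of 6 libraries. Every value above 0 was a whole multiple of a library's step (100%, tolerance 0.001), which gave back whole numbers of estimated reads, called recovered reads here. These estimates depend on the table: member reads of WT-TRAMP differed by −3.49% to 1.88% between their 2 tables. RPM values of WT-TRAMP use the KO-TRAMP table, and those of A537T-TRAMP come from its own table. The authors' 4 tables of log2 fold changes, posterior SDs and s-values were not used. Symbols, positions and exon lengths came from the supplied gene table and an earlier GENCODE release than the authors', promoters from RefSeq.

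Each line was tested against WT-TRAMP within its table with limma 3.58.1 under R 4.3.3 (lmFit and trended eBayes) on log2(value + 1), for genes at a mean of at least 10, two-sided, with Benjamini-Hochberg adjustment over all genes and a threshold of 0.05. Fold changes on this scale understate the change of low genes. The interaction had a separate intercept for each table. The methods describe mice matched by age and litter, but the columns do not say which libraries share a litter. Litter was therefore not modelled, and the p-values treat all libraries as independent, libraries 12 and 18 included. The fit was run on simulated counts with the same dispersion for every gene. That run does not speak for genes that vary as widely within groups as most of the members did. Alternatives were pseudocounts of 0.5 and 8, no filter, library-total scaling, edgeR 4.0.16 and DESeq2 1.42.0 on recovered reads, array weights, and leaving out each library. Leaving out libraries 12 and 18 together was added after the data were seen. The members and lists were chosen with earlier results of these data known. Named genes were the 7 members, per list up to 3 genes past the threshold with the largest change or otherwise its most abundant gene, and per member the 3 most like it. Results for 2 other genes are not reported here. Further genes in the text were named after their values were seen.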

Additional observations from a re-analysis of the deposited data

Results flagged for a closer look

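Msmb lay on opposite sides of WT-TRAMP in the 2 mutant lines at 30 weeks. Each KO-TRAMP library was below the lowest WT-TRAMP library (log2FC −0.97), and each A537T-TRAMP library was above the highest (log2FC 0.44). Of all genes tested, 9.48% were lower without overlap in KO-TRAMP and 7.36% higher without overlap in A537T-TRAMP. Msmb was flagged by this pattern itself, and the share of all genes that show both was not counted. Both comparisons share the WT-TRAMP libraries, the tables were normalized separately, and the difference between the lines was not tested. Neither value passed the threshold in limma.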

How the results depend on the processing

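No secretory gene had passed the threshold in the main fits, so no call could be lost under the alternatives. Of 616 values of single secretory genes under these alternatives, 570 kept their direction and did not pass, 23 newly passed, and 23 changed sign. The cause was not tested. For KO-TRAMP at 10 weeks, 2 genes of the whole table passed in limma, 0 with edgeR and 81 with DESeq2, which called 2 secretory genes. 9530053A07Rik became 1.41 with edgeR and 1.42 with DESeq2, against −0.70 in the main fit and a ratio of mean normalized counts of 2.65. Leaving out 1 library gave 1 to 9 genes, 0 to 1 secretory genes, and log2FC of −1.04 to 2.60 for Tgm4, −2.71 to 1.59 for 9530053A07Rik and −0.24 to 0.035 for Azgp1. For A537T-TRAMP at 10 weeks, 1 gene passed, 0 with a pseudocount of 0.5, 0 with edgeR, 148 with DESeq2 (1 secretory gene), 4 with array weights, and 0 to 65 without 1 library, with −0.31 to 3.04 for 9530053A07Rik.

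For KO-TRAMP at 30 weeks, 36 genes passed, 15 with edgeR, 805 with DESeq2 (3 secretory genes), 10748 with array weights (7), 0 without libraries 12 and 18, and 0 to 3064 without 1 library (0 to 5 secretory genes, the 5 and the 3064 without library 16). No filter gave 1 secretory gene. For A537T-TRAMP at 30 weeks, 0 passed, 165 with DESeq2, 3388 with array weights (1 secretory gene) and 0 to 145 without 1 library. With edgeR and DESeq2, Tgm4 became 1.01 and 1.01 and 9530053A07Rik 1.15 and 1.15, and Sbp became 0.093 with array weights. Leaving out 1 library gave −0.32 to 0.19 for Sbp, −2.95 to 0.24 for Tgm4, −3.44 to 0.69 for 9530053A07Rik, −0.26 to 0.73 for Spink1 and −0.051 to 0.26 for Azgp1. For the change of the KO-TRAMP effect with age, 0 genes passed, 1 with a pseudocount of 8, 1 with no filter, and 0 to 1944 without 1 library (0 to 1 secretory genes), with −0.11 to 0.51 for Sbp. For that of A537T-TRAMP, 0 to 20 genes passed without 1 library, and Msmb ranged from −2.59 to 0.21. The array weights stopped before converging in 2 fits.

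No paired analysis was possible because the columns carry no replicate or litter numbers, although the mice were matched by litter. Groups hold 3 libraries each, and at 30 weeks libraries 12 and 18 were close to weighted sums of the other libraries of their groups, which was not traced further. Low levels of Tgm4 and 9530053A07Rik rest on few reads.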
